A study of Caenorhabditis elegans with 2 samples.

Results

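Regions of CEH-19 chromatin immunoprecipitation at nuclear tRNA genes of the nematode Caenorhabditis elegans were examined gene by gene. A region was counted when its summit lay within 200 bp of a tRNA gene on one of the 6 nuclear chromosomes, and 426 of the 29977 nuclear regions of the pooled list did (1.42%). They had 364 different nearest tRNA genes, out of 612 annotated. The study precipitated chromatin with an anti-GFP antibody from whole late embryos of mixed sex, 5 h old and obtained by egg bleaching, and sequenced it (ChIP-seq). All libraries belong to 1 group, with 2 biological replicates that the labels number 3 and 2. All worms were of strain OP739, which carries the unc-119 allele tm4063 and wgIs739, a transgene with unc-119(+) and with ceh-19 joined to TY1, EGFP and 3xFLAG. A control precipitation from worms lacking the tag is not used here, and the dependence of any tRNA gene region on CEH-19 was not tested. Because whole embryos were precipitated, signal in more cells and more signal per cell cannot be told apart.

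CEH-19 is a homeodomain transcription factor best known from the MC motor neurons of the pharynx. A tRNA gene is a short transcription unit read by RNA polymerase III, and its promoter lies inside the gene: the A box and the B box are bound by TFIIIC, which places TFIIIB just ahead of the gene, and a run of T on the coding strand ends transcription. Nematode tRNA genes are present in many identical copies, either alone or in small clusters, and often inside introns of protein-coding genes.

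The genes under 5 strong regions show these parts, and they are printed because the text refers to the B box and to the gene ends throughout. Each is the gene and the 25 bases after it, read on the strand of the gene from 5′ to 3′, taken from the RefSeq sequence of the WBcel235 assembly, which is ce11. Capitals mark the B box core, searched as GTTCNANNC, and the first run of T after the gene. C04A11.t1 (Leu, with an intron of its own) is at chrX:13665555-13665698 on the plus strand, F15G9.t1 (Ala) at chrX:9743589-9743685 on the plus strand, ZC455.t1 (Ser) at chrV:12780361-12780467 on the minus strand, C06G1.t1 (His) at chrX:16634805-16634901 on the minus strand and F57F5.t1 (Ile) at chrV:12002176-12002285 on the plus strand.
C04A11.t1: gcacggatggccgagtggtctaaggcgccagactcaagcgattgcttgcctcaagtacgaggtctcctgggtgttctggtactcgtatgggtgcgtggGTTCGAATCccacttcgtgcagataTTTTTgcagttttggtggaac
F15G9.t1: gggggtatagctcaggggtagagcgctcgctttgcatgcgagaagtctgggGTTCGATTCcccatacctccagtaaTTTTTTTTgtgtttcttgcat
ZC455.t1: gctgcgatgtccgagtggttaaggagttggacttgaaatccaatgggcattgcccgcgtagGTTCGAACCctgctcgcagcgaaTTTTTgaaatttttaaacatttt
C06G1.t1: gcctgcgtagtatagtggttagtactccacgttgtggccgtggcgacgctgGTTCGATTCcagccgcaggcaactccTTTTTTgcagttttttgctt
F57F5.t1: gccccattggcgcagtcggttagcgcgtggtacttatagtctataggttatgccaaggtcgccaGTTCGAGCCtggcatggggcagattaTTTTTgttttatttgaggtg

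The 100 bases before the gene are printed for the 5 strongest regions, because these flanks differ most between genes with and without a region, as described further on. Capitals mark GAGAG and its reverse complement CTCTC. They lie at chrX:13665455-13665554 on the plus strand (C04A11.t1), chrX:5085696-5085795 on the minus strand (C42D8.t1, Ile), chrX:8404399-8404498 on the plus strand (F41D9.t3, Asn), chrX:12106220-12106319 on the minus strand (W03G11.t1, Lys) and chrX:9743489-9743588 on the plus strand (F15G9.t1).
C04A11.t1: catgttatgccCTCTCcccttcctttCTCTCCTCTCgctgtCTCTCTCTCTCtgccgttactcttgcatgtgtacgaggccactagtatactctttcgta
C42D8.t1: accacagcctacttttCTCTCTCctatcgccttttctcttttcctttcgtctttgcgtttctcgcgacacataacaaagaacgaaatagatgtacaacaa
F41D9.t3: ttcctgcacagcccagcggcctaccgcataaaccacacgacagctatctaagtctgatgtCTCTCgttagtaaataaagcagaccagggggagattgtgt
W03G11.t1: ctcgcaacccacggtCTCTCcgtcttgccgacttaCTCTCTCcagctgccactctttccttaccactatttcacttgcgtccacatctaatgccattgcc
F15G9.t1: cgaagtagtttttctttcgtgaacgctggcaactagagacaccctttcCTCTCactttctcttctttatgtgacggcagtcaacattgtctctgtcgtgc

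For 3 tRNA-Pro genes with the same gene sequence the flanks before the gene are shown as well, since the first of them, F46G11.t2, had the strongest region of any tRNA-Pro gene and the other two had none. F46G11.t2 is at chrX:5801283-5801382 on the minus strand, Y71H2AM.t1 at chrIII:2711611-2711710 on the plus strand and ZK678.t3 at chrX:15751320-15751419 on the plus strand.
F46G11.t2: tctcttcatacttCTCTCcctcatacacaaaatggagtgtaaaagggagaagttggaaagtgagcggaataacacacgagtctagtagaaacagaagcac
Y71H2AM.t1: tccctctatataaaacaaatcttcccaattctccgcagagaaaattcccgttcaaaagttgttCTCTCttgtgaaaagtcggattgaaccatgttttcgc
ZK678.t3: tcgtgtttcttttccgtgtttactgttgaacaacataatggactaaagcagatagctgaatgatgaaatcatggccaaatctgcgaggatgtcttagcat

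Each region has a signal value, written by the authors' peak caller with no stated scale. The depth of the libraries is unknown, since no read counts were analysed. The authors' optimal list, which passed their irreproducible discovery rate (IDR) threshold, held 1091 nuclear peaks, and these were exactly the 1091 nuclear regions with the highest pooled signal. A tRNA gene region was therefore in the optimal list when its signal was 112.885 or more, and the highest value outside it was 112.79. "Optimal" below stands for a signal past that limit, and the number of regions limits the precision of every share. Exact 95% intervals are given for shares, and they treat regions as separate, although neighbouring tRNA genes can share sequence.

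Regions at tRNA genes stood high in the list. Of the 426, 168 were in the optimal list (39.4%, exact 95% interval 34.8 to 44.3%), against 3.64% of all nuclear regions. The median signal was 86.9 at tRNA genes (quartiles 51 and 166, range 29.9 to 631) and 42.2 over all nuclear regions (quartiles 35.0 and 55.2, range 29.7 to 1144). Both started at nearly the same lowest value, and at tRNA genes the quartiles and the median were all higher. Small nucleolar and spliceosomal RNA genes gave similar or lower shares. Of 153 regions at genes of small nucleolar RNAs (snoRNAs, which guide rRNA modification) 54 were optimal (35.3%, 27.7 to 43.4%). Of 40 at snRNA genes (spliceosomal RNAs) 10 were (25%). U6 snRNA genes, also read by RNA polymerase III, were left among the snRNA genes. At 12 regions beside other RNA polymerase III genes, recognised by name, 6 were optimal (50%, 21.1 to 78.9%), and the median signal was 117. Both values were above those of tRNA genes, but the interval for this share spans that for tRNA genes. In promoters of protein-coding genes away from small RNA genes, 318 of 4707 regions were optimal (6.76%, 6.06 to 7.51%). The interval for tRNA genes overlaps that for snoRNA genes and lies above that for promoters.

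Counted by gene, 390 of the 612 nuclear tRNA genes had at least 1 region within 200 bp (63.7%, 59.8 to 67.5%), and 26 of these had only a region whose nearest tRNA gene was a neighbour. An optimal peak lay at 181 tRNA genes (29.6%, 26.0 to 33.4%), while 222 had no region of any strength. A region lay at 133 of 346 snoRNA genes (38.4%, 33.3 to 43.8%), at 37 of 129 snRNA genes (28.7%) and at 7 of 24 other RNA polymerase III genes (29.2%). The share of tRNA genes with a region was thus above that of snoRNA genes beyond both intervals. Summits were most frequent close to the gene: 125 lay 1 to 50 bp from a tRNA gene, 40 at 51 to 100 bp, 44 at 101 to 150 bp and 26 at 151 to 200 bp, followed by 11.5 per 50 bp at 201 to 300 bp, 7.5 at 301 to 400 bp, 10 at 401 to 600 bp, 18.5 at 601 to 800 bp and 16 at 801 to 1000 bp. Optimal peaks were closer still, with 98 of 191 summits inside a gene, 62 of 125 at 1 to 50 bp, 5 of 40 at 51 to 100 bp, 3 of 44 at 101 to 150 bp and 0 of 26 at 151 to 200 bp. Just inside the limit lay regions at rtw-6 (200 bp, signal 30), C02B4.t1 (199 bp, 71.1) and C29F7.t3 (197 bp, 31.1). Just outside lay those at Y43D4A.t1 (201 bp, 33.5), F49C5.t1 (207 bp, 42.1) and K01A6.t1 (207 bp, 30.7), all 6 of them below the optimal limit.

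Both libraries gave these regions. Of the 426, 358 had a region with its summit within 100 bp in the replicate 3 list (84.0%, 80.2 to 87.4%), against 59.7% of all nuclear regions, and 325 in the replicate 2 list (76.3%, 72 to 80.3%), against 48.7%. In both lists were 282 (66.2%, 61.5 to 70.7%), against 25% of all nuclear regions, and 25 were in neither. Among the optimal peaks at tRNA genes 163 of 168 were matched in both, and among the weaker regions 119 of 258 (46.1%, 39.9 to 52.4%). The optimal list was selected for reproducibility between replicates, so a high matched share is built into it. The same split was not computed for all nuclear regions, so it cannot be read as a trait of tRNA genes. Over the 282 matched in both, the log2 ratio of signal in replicate 3 over replicate 2 had a median of 0.46 (SD 0.54), and replicate 3 was higher at 236. All 7506 nuclear regions matched in both had 0.38 (SD 0.58), so the difference between replicates at tRNA genes was close to that of the lists as a whole.

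**Figure D1:**
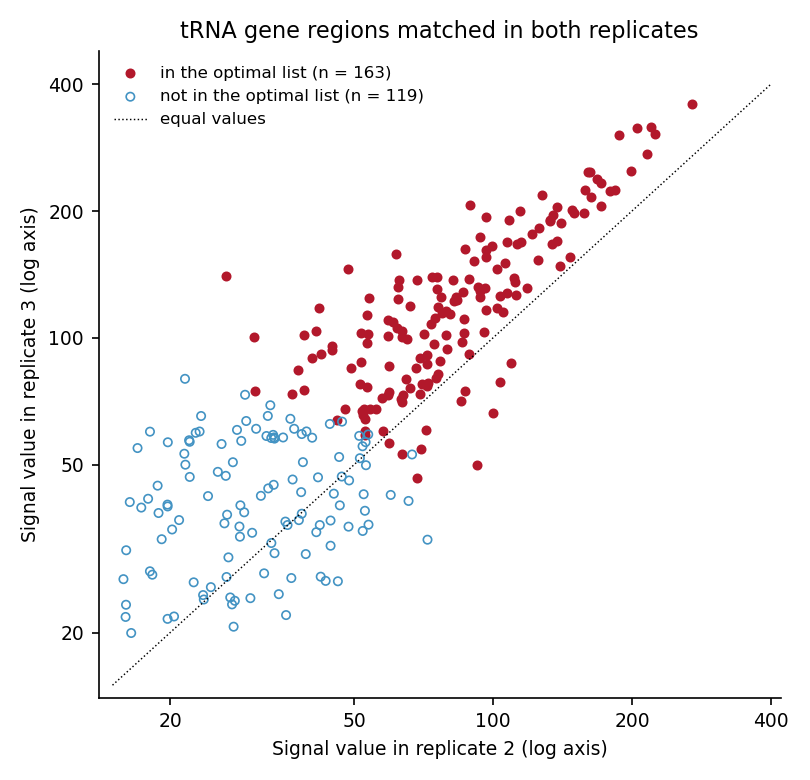
Signal value of each tRNA gene region in replicate 3 (vertical, log axis) against replicate 2 (horizontal, log axis), for the 282 regions matched in both lists. Filled points are in the optimal list (163) and open points are not (119). Filled points follow a line above that of equal values, while open points spread without a clear order.

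The rank order of signal at the 282 tRNA gene regions was alike in the replicates (Spearman's rho 0.827, a description over regions of 1 pair of libraries that share a control file). Within the 163 optimal peaks it was 0.745, and within the 119 weaker regions 0.187. Below the optimal limit, where pooled signals cover a narrow range, the order of tRNA genes was hardly shared between the libraries. A few optimal peaks rested mostly on 1 library. The region at C02D4.t1 (Ile) had a pooled signal of 169, with 140.0 in replicate 3 and 26.4 in replicate 2. That at W09D6.t2 (Pro) had 126, with 100.3 in replicate 3 and 30.3 in replicate 2, and that at T06H11.t2 (Arg) had 185, with 145 in replicate 3 and 48.4 in replicate 2. In replicate 2 the median of tRNA gene regions was 40.6, so C02D4.t1 and W09D6.t2 were below it and T06H11.t2 above it. Other optimal peaks had no match in the replicate 2 list at all. Taken alone, the replicate 3 list had 412 regions at tRNA genes and the replicate 2 list 419, and the strongest was at C04A11.t1 in both.

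The 20 strongest tRNA gene regions had pooled signals of 341 to 631, with 198 to 358 in replicate 3 and 127 to 270.2 in replicate 2. Replicate 3 was the higher at all 20. They cover 15 amino acids, and 14 lie on X. At C04A11.t1, a tRNA-Leu gene with an intron in the intergenic space near C04A11.5, the signal was 631, with 358 in replicate 3 and 270.2 in replicate 2. It ranked 10th among all nuclear regions. At C42D8.t1 (Ile), also intergenic, it was 539, with 317 in replicate 3 and 220.1 in replicate 2. Intergenic here and below means outside protein-coding genes, whether or not a gene of another type overlaps. At F41D9.t3 (Asn), in an intron of the anion transporter gene sulp-3 and on its opposite strand, it was 529, with 305 in replicate 3 and 225 in replicate 2. In both replicates these 3 exceeded every other tRNA gene region, except W03G11.t1 (Lys) in replicate 3. W03G11.t1, intergenic, had 521, with 315 in replicate 3 and 205 in replicate 2. F15G9.t1 (Ala), in an intron of the hemicentin gene him-4, had 487, with 273 in replicate 3 and 216 in replicate 2. M02F4.t1 (Gly), intergenic, had 485, with 302 in replicate 3 and 187 in replicate 2, and its region also lay within 200 bp of the tRNA-Glu gene M02F4.t2.

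Several of the strongest regions lay inside well studied protein-coding genes, 11 of the 20 in an intron and 8 in intergenic space. C37A2.t1 (Cys) is in an intron of cye-1 (cyclin E) and had 454, with 249 in replicate 3 and 199 in replicate 2. F38G1.t2 (Asp) is in an intron of egl-17, which encodes a fibroblast growth factor, and had 414, with 248 in replicate 3 and 162 in replicate 2. sup-5 (Trp) is in an intron of the flightless homologue fli-1 and had 414, with 238 in replicate 3 and 168 in replicate 2. The tRNA gene can be on either strand of its host: sup-5 and C37A2.t1 run with it, and F38G1.t2 against it. ZC455.t1 (Ser) had 413, with 224 in replicate 3 and 179.6 in replicate 2, and C06G1.t1 (His) 404, with 233 in replicate 3 and 171 in replicate 2. C28G1.t1 (Glu), inside an exon of C28G1.2, had 402, with 224 in replicate 3 and 184 in replicate 2, and F57F5.t1 (Ile), intergenic, 401, with 248 in replicate 3 and 160.3 in replicate 2. The remaining 7 of the 20 had 341 to 383: T21B4.t1 (Ile) in an intron of col-85, C53C7.t2 (Ser), C33G3.t2 (Lys), F29C4.t1 (Arg) in an intron of col-99, C02B4.t2 (Tyr) in an intron of nhr-17, F46G11.t2 (Pro) and F17H10.t1 (Gly) in an intron of the sorting nexin gene snx-17.

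Every one of the 20 standard amino acids had optimal peaks at its tRNA genes. The share of regions that were optimal ran up to 7 of 10 for Cys (70.0%, 34.8 to 93.3%) and 17 of 33 for Gly (51.5%, 33.5 to 69.2%). Among the standard amino acids it was lowest for Trp with 2 of 8 (25%, 3.19 to 65.1%) and Val with 7 of 26 (26.9%, 11.6 to 47.8%). All these intervals overlap, so no amino acid stood apart at this number of genes. For amino acids outside the 20 strongest regions, the strongest tRNA gene region was at R04D3.t2 for Val (pooled signal 307), T28B4.t1 for Phe (303), C02F12.t1 for Met (299.7), R01H5.t1 for Thr (296) and R04A9.t1 for Gln (293). These 5 had 156 to 191 in replicate 3 and 108 to 147 in replicate 2. Ser and His had the lowest medians of the standard amino acids, 57.3 and 63.2, although their strongest regions reached 413 and 404. K11H12.t1, the single selenocysteine tRNA gene, had 74.9, with 38.3 in replicate 3 and 38.5 in replicate 2, below the optimal limit, and its summit lay 112 bp before the gene. For 5 genes RefSeq gives no amino acid, and 3 of these had a region, none of them optimal.

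**Figure D2:**
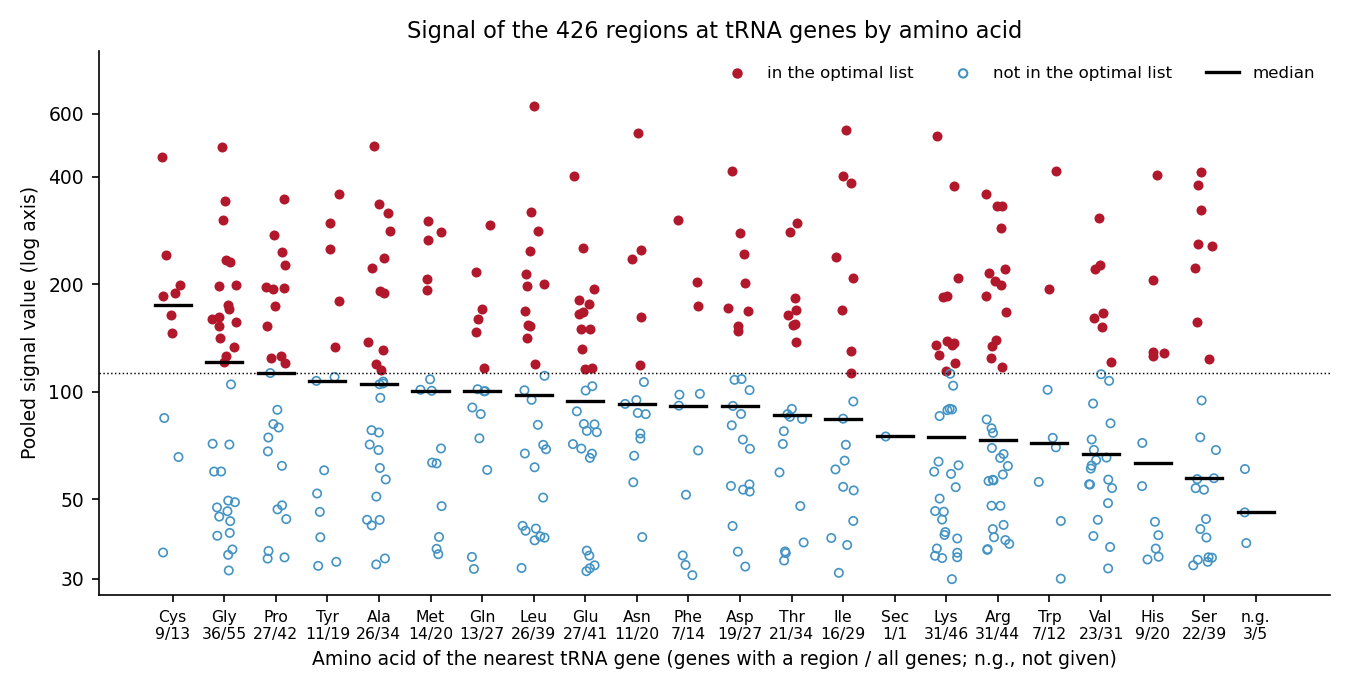
Pooled signal value (log axis) of each of the 426 regions by the amino acid of the nearest tRNA gene, ordered by median (bars). Filled points are in the optimal list, above the dotted line at 112.885. Under each name stand the genes with a region and all genes, and n.g. stands for the 5 genes with no amino acid given. Strong and weak regions occur side by side for every standard amino acid.

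The gene sequence itself did not order the regions. The 612 genes have 200 distinct sequences, and 20 families of 10 or more identical copies hold 317 genes. In every one of these families some copies had an optimal peak and some had no region. The largest, 29 identical tRNA-Gly genes, had regions at 21, from 485 at M02F4.t1 to 35.0 at C12C8.t4, and 11 with an optimal peak. Of 25 identical tRNA-Lys genes 19 had a region, from 521 at W03G11.t1 to 34.2 at K11E4.t3, where no replicate list had a match. Of 24 identical tRNA-Pro genes 16 had one, from 347 at F46G11.t2 to 34.4 at F23D12.t1, and 8 had none, among them Y71H2AM.t1 and ZK678.t3. The highest copy exceeded the lowest by 3.38-fold in the tRNA-Gln family to 15.2-fold in the tRNA-Lys family. The SD of the log2 signal at the strongest region of a gene was 1.04 over all 390 genes with a region, 1.01 within families of identical genes (302 genes in 46 families) and 1.05 within amino acids. Among genes with a region, copies of the same sequence thus varied as much as tRNA genes in general. Copies with no region are not in these SDs. The log2 ratio between the replicates had an SD of 0.54, but only over the 282 regions matched in both lists. That set leaves out unmatched regions, so the 2 spreads are not directly comparable.

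**Figure D3:**
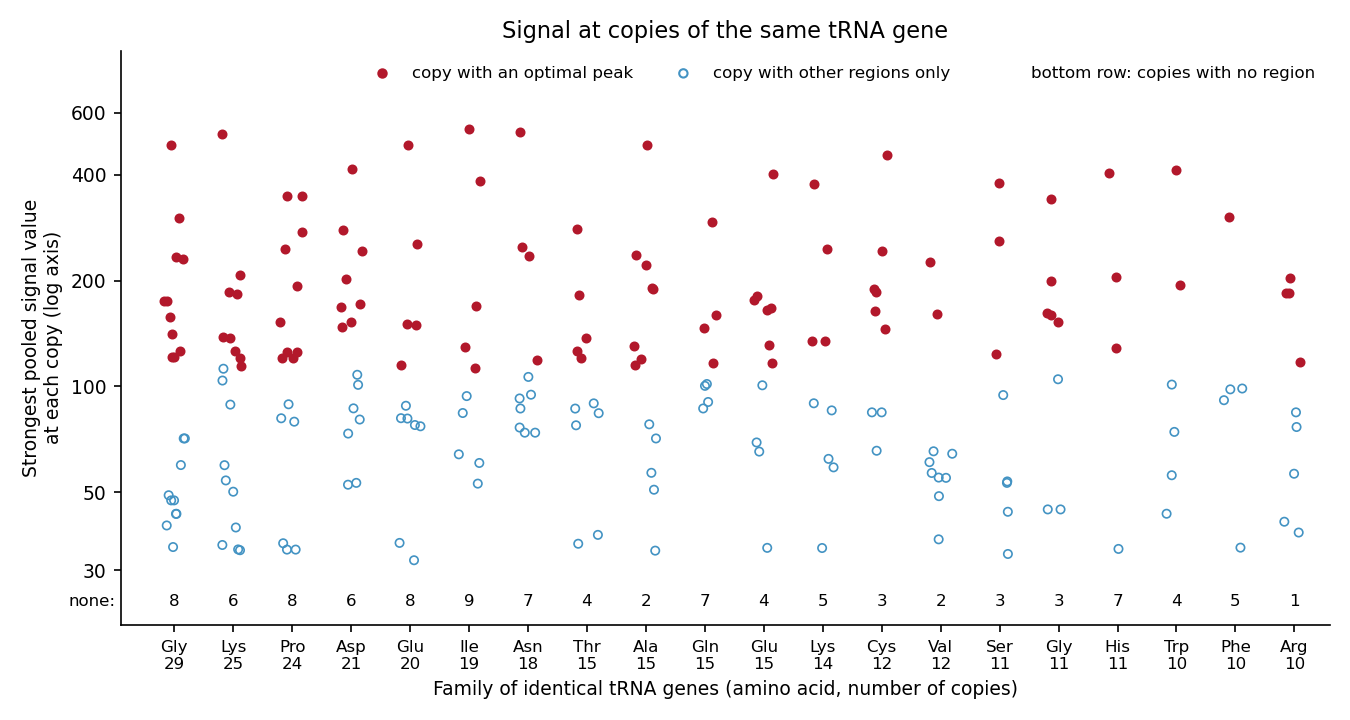
Strongest pooled signal value (log axis) at each copy of the 20 families of 10 or more identical tRNA genes, with amino acid and number of copies below. Filled points are copies with an optimal peak, open points copies with weaker regions, and the bottom row counts copies with no region. Every family holds all 3 kinds.

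Genes that occur as 1 copy only were optimal less often. Of 143 such genes 24 had an optimal peak (16.8%, 11.1 to 23.9%), against 157 of 469 genes with an identical copy (33.5%, 29.2 to 37.9%). A region of any strength lay at 82 of the 143 (57.3%) and at 308 of the 469 (65.7%, intervals overlapping). A read wholly inside an identical copy matches several places, and how the authors placed such reads is not given in the sources used here. Of the 32-base words within a gene, the median share that occurs once in the genome was 0% over all tRNA genes and 58.5% for 1-copy genes. For words wholly within the 200 bp on either side it was 100%. Words that span an end of the gene are in neither share. Among genes with flanks at least 90% unique, 20 of 116 genes with 1 copy (17.2%) and 135 of 384 with more (35.2%) had an optimal peak. Such flanks were about as frequent at genes with 1 copy (81.1%) as at those with more (81.9%). This split leaves words inside the gene as they were, so it cannot show the part of read placement, which was not tested.

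The tRNA-Trp genes include those in which amber suppressor mutations were found, which turn a tRNA-Trp gene into one that reads the UAG stop codon. The 10 identical genes ran from 414 at sup-5, with 238 in replicate 3 and 168 in replicate 2, and 194 at sup-7, with 111 in replicate 3 and 86.5 in replicate 2, to no region at sup-21, sup-24, sup-33 and Y95B8A.t1. Between them, and below the optimal limit, were sup-28 (101), rtw-6 (74.3), sup-29 (55.9) and Y4C6B.t2 (43.5). sup-28 and sup-33 lie in the same host gene, trk-1, and on the same strand. One had a region and the other had none, although their gene sequences are identical.

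Summits lay at the start of the gene. At optimal peaks the summit was at a median of 13 bp from the first base of the gene (quartiles -7 and 45 bp), with negative values before the gene. By position that is near the A box and ahead of the B box, which is in the 3′ part of the genes printed above. Chromatin was sonicated to 200 to 800 bp, longer than a tRNA gene of median length (72 bp). The median share of 32-base words within a tRNA gene that occur once in the genome was 0%, so read placement there is uncertain. Summit positions therefore cannot assign the signal to the A box rather than the B box. The summit lay on the upstream side of the gene midpoint at 111 of 168 optimal peaks (66.1%, 58.4 to 73.2%) and at all 20 of the strongest regions, whose summits fell between -34 and 19 bp. Over all 426 regions it was 234 (54.9%, 50.1 to 59.7%), and over the 258 weaker ones 123 (47.7%). Of the 104 regions with the summit behind the gene 19 were optimal (18.3%, 11.4 to 27.1%), against 98 of 191 inside it (51.3%, 44.0 to 58.6%) and 51 of 131 before it (38.9%, 30.5 to 47.8%).

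At 62 tRNA genes there were 2 regions, and the second followed the genome coordinate and not the gene. The summits of a pair were 199 to 306 bp apart (median 204 bp), and 199 bp was also the shortest distance between any neighbouring summits of the pooled list. The weaker one was at the higher coordinate in 62 of 62 pairs, and in 1273 of 1328 close pairs of other nuclear regions (95.9%, 94.6 to 96.9%). The stronger region of a pair had a median of 2.96 times the signal of the weaker one, and at C04A11.t1 they had 631 and 101. On genes of the plus strand the further regions lay behind the gene (0 of 40 on the upstream side), and on genes of the minus strand before it (21 of 22). With the strongest region of each gene alone, the summit was on the upstream side at 109 of 184 genes of the plus strand (59.2%, 51.8 to 66.4%) and 104 of 180 of the minus strand (57.8%, 50.2 to 65.1%). The start of the gene was therefore favoured on both strands once each gene was counted once.

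**Figure D4:**
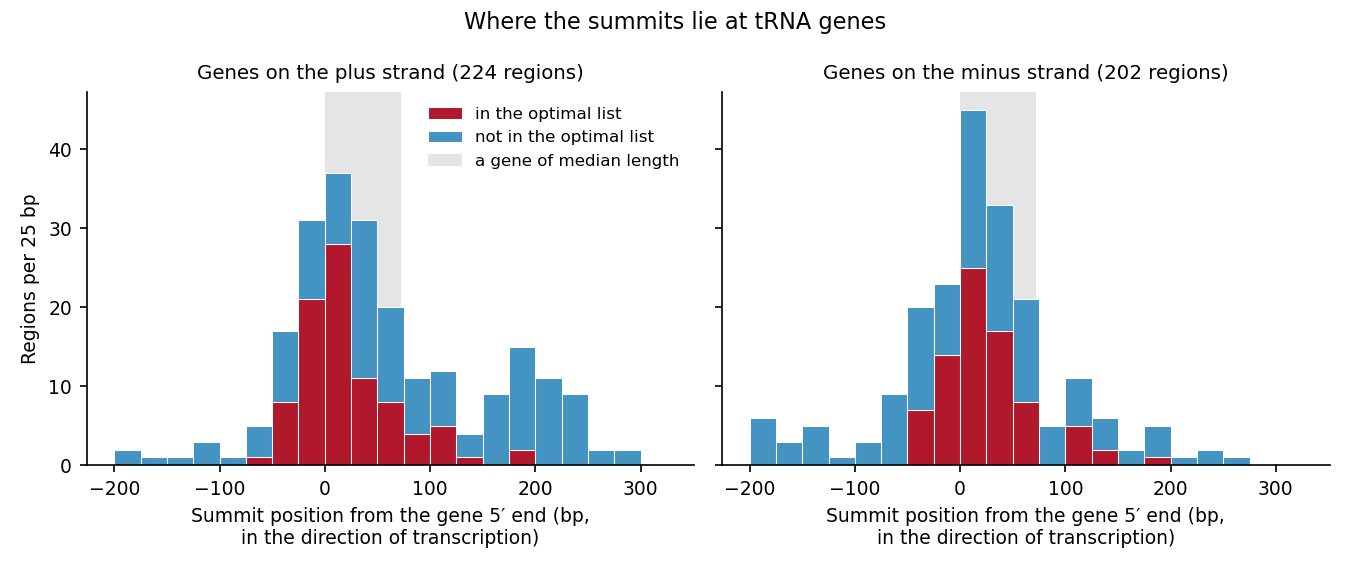
Number of tRNA gene regions per 25 bp of summit position, counted in bp from the 5′ end of the gene in the direction of transcription, for genes on the plus strand (left) and the minus strand (right). Red bars are in the optimal list and blue bars stacked on them are not, and the grey band marks a gene of median length (72 bp). The main group is at the gene start on both strands, and the small second group lies behind genes of the plus strand and before genes of the minus strand.

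The share of optimal peaks differed with the spacing of tRNA genes, by an amount that depended on the distance used. A gene was called clustered when another tRNA gene lay within 1000 bp. Of 236 clustered genes 52 had an optimal peak (22.0%, 16.9 to 27.9%), against 129 of 376 single genes (34.3%, 29.5 to 39.3%). By region it was 37 of 120 at clustered genes (30.8%, 22.7 to 39.9%) and 131 of 306 at single ones (42.8%, 37.2 to 48.6%), a difference of -11.98 percentage points (Newcombe 95% interval -21.4 to -1.68). With the cluster distance at 500 bp the difference was -1.69 points (-13.3 to 11), since the lowest share was at genes with a neighbour 501 to 1000 bp away (10 of 49 regions, 20.4%). Neighbouring genes share sequence: 64.8% of clustered and 92.3% of single genes had flanks at least 90% unique, and among those 27 of 153 clustered genes (17.6%, 12.0 to 24.6%) and 128 of 347 single ones (36.9%, 31.8 to 42.2%) had an optimal peak. With less unique flanks the order was the opposite, with 25 of 83 clustered genes (30.1%, 20.5 to 41.2%) and 1 of 29 single genes (3.45%, 0.0873 to 17.8%).

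Of the 100 clusters 81 had a region and 34 an optimal peak. The 6 identical tRNA-His genes of F28H6, on X and on alternating strands, had 1 region with a signal of 34.5, found in replicate 3 (27.2) and not in replicate 2. The 5 tRNA-Gln genes of H08J11 had 1 region of 86.6, with 36.1 in replicate 3 and 53.8 in replicate 2. In contrast, the 4 tRNA-Tyr genes of R11 had 1 optimal peak of 297, at R11.t1, with 169.6 in replicate 3 and 138 in replicate 2. The mixed group F22F1 of 6 genes had one of 279.7, with 194 in replicate 3 and 96.7 in replicate 2, at its tRNA-Met gene F22F1.t6. The 37 optimal regions nearest to clustered genes lay in 34 clusters, and 52 genes of clusters had an optimal peak within 200 bp, since 1 region can lie that close to neighbouring genes.

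Regions in introns of protein-coding genes and outside such genes did not differ beyond counting error. Of 210 regions at tRNA genes in introns of protein-coding genes 78 were optimal (37.1%, 30.6 to 44.1%), against 87 of 208 at intergenic ones (41.8%, 35.0 to 48.8%), a difference of -4.68 points (-13.9 to 4.66). Hosts were then widened to genes annotated as ncRNA, lincRNA or antisense RNA. With these, 87 regions were at tRNA genes in introns, 242 at ones in exons and 97 at ones outside all such hosts. The difference between introns and outside was then -4.57 points (-18.2 to 9.37). In introns of protein-coding genes, 42 of 120 on the host's own strand were optimal (35.0%), and 36 of 90 on the opposite strand (40.0%, intervals overlapping). Genes on the plus and the minus strand of the chromosome had 89 of 224 and 79 of 202 optimal regions (39.7% and 39.1%). X carries 276 of the 612 tRNA genes and had 181 of the 426 regions (42.5%, 37.7 to 47.3%). Its tRNA genes had a region at 63.0% (57.1 to 68.8%), within the range of the other chromosomes, which ran from 56.4% on V to 73.7% on II.

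**Figure D5:**
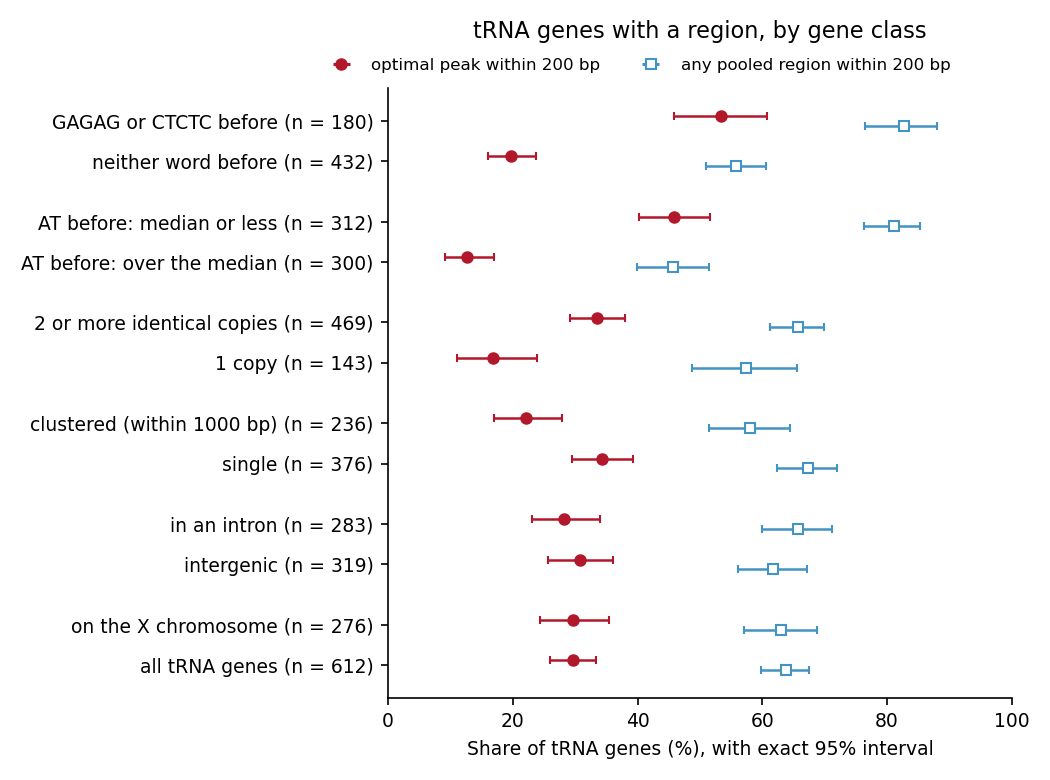
Share of tRNA genes with an optimal peak (filled circles) and with any pooled region (open squares) within 200 bp, by gene class, with exact 95% intervals as bars. The widest gaps are between genes with and without GAGAG or CTCTC in the 100 bases before them (53.3% and 19.7% with an optimal peak) and between genes with a low and a high AT content there (45.8% and 12.7%). The words were chosen after seeing these data. Genes in introns of protein-coding genes and outside such genes have overlapping intervals.

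Of the gene classes compared, those by the sequence before the gene differed most. GAGAG and CTCTC were chosen after seeing these data, so the size of the difference by word was not tested independently. GAGAG, or its reverse complement CTCTC, was present in the 100 bases before 96 of 181 genes with an optimal peak (53.0%, 45.5 to 60.5%), 53 of 209 with weaker regions only (25.4%, 19.6 to 31.8%) and 31 of 222 with no region (14%, 9.69 to 19.2%). Before 17.0% of the 19973 protein-coding genes a window of the same length held one of these words. C04A11.t1 has several CTCTC runs, C42D8.t1 an extended one, W03G11.t1 an extended and a separate one, and F41D9.t3 and F15G9.t1 a single word. In all, 16 of the 20 strongest regions were at a gene with a word before it. The words were more often CTCTC as read on the tRNA gene's strand: 40.9% of genes with an optimal peak, 16.7% with weaker regions and 10.4% with none held it, against 19.9%, 9.57% and 3.60% for GAGAG. In the 100 bases after the gene, either word stood at 12.7%, 7.66% and 10.8% of these classes, so the order of the classes was not seen there.

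Turned round, 96 of 180 tRNA genes with a word before them had an optimal peak (53.3%, 45.8 to 60.8%), against 85 of 432 without (19.7%, 16 to 23.7%), a difference of 33.7 percentage points (25.3 to 41.6). A single replicate list has no optimal calls, so its 1112 strongest regions stood in for optimal peaks. By that measure the difference was 37.6 points in the replicate 3 list and 35.3 in the replicate 2 list. With optimal peaks of the pooled list it was 32.1 among genes with flanks at least 90% unique. On X it was 45.3 points and on the autosomes 24.1. It was present for single genes (34.8), for clustered ones (26.6), in introns (31.9) and outside protein-coding genes (34.7). These values reuse the genes seen when the words were chosen. The identical tRNA-Pro genes show that the word alone does not mark a gene with a region: F46G11.t2, with 347, and Y71H2AM.t1, with none, both have one CTCTC, and ZK678.t3, with none, has neither word. A word is a match of 5 letters and not a binding site.

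Base composition before the gene moved with it. The median AT content of the 100 bases was 54% at genes with an optimal peak, 58% with weaker regions and 63% with none. An optimal peak lay at 143 of 312 genes with 58% AT or less (45.8%, 40.2 to 51.5%) and at 38 of 300 with more (12.7%, 9.12 to 17.0%), and 41.7% and 16.7% of these genes had a word. Among genes with 58% AT or less 85 of 130 with a word (65.4%, 56.5 to 73.5%) and 58 of 182 without (31.9%, 25.2 to 39.2%) had an optimal peak. With more AT it was 11 of 50 (22.0%, 11.5 to 36.0%) and 27 of 250 (10.8%, 7.24 to 15.3%), with overlapping intervals. The part of AT content in the difference by word, beyond this split, was not tested.

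The parts inside the gene did not separate the classes. The B box core was found in 587 of the 612 genes, at 96.1% of genes with an optimal peak, 96.7% with weaker regions and 95% with none. A run of at least 4 T began within 25 bases after 99.4%, 99% and 97.7% of them. Optimal peaks lay at 174 of 587 genes with the B box core (29.6%) and at 7 of 25 without it (28.0%). In windows of 72 bp at the summits, on either strand, the B box core stood at 116 of the 426 tRNA gene regions (27.2%, 23.1 to 31.7%) and at 710 of 29551 other nuclear regions (2.40%). The tRNA gene regions were chosen for a tRNA gene within 200 bp, and most such genes hold the core. The higher share at them follows from that choice and is no separate result. GAGAG or CTCTC, in windows of 100 bp at the summits, stood at 26.3% of the tRNA gene regions (22.2 to 30.7%), 20.7% of other nuclear regions, 25% of promoter regions and 24.2% of snoRNA gene regions (17.6 to 31.8%). At the summit the share at tRNA gene regions was thus close to those of promoter and snoRNA gene regions. It cannot be set against the shares before the gene, which were counted over genes with and without a region.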

How the data were processed

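ChIP-seq region lists of 1 group were analysed, the pooled list, the optimal list and 1 list for each of the 2 replicates. Per the files deposited with them, replicate and pooled lists hold peaks and background regions called with 1 control file on ce11, as input for IDR. Read filters, aligner, peak caller, versions and the IDR threshold are not given in the sources used here. No normalization is stated for the deposited signal value, which was used as deposited. The deposited −log10 q-value was not used in a result, and summits came from the deposited offset to the region start.

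Genes came from Ensembl release 115 and tRNA names, amino acids and sequences from RefSeq, matched by gene identifier for all 612 genes, 607 of them with an amino acid. A region belonged to the nearest tRNA gene within 200 bp of its summit, and lists were matched by summits within 100 bp. Words were searched on both strands in 100 bp. A sequence was unique when its 32-base word occurs once in the genome. With 1 group, no p-value was computed. Shares have exact (Clopper-Pearson) 95% intervals, and differences Newcombe intervals, which cover counting error only. Named genes were, by rule, the 20 strongest, the strongest of each amino acid, the 3 regions nearest to the limit on each side, the selenocysteine gene, and the highest, lowest and missing copies of the large identical families. C02D4.t1, W09D6.t2, T06H11.t2, the tRNA-Trp genes, R11.t1 and the clusters named fall outside it and were chosen after their values were seen. The members, the words and the lists were chosen with earlier results of these data known. The position and matching steps were tested on simulated data. Python 3.11.15, numpy 2.4.6, scipy 1.17.1, pandas 2.3.3 and matplotlib 3.10.9 were used.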

Additional observations from a re-analysis of the deposited data

How the results depend on the processing

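Of 89 alternative values, 66 were classed as the same as the reported ones, 23 as moved and 0 as changed in sign. Counts, shares and medians of signal cannot change sign, and log2 ratios were not classed for it. A change was counted only for a difference whose reported interval excluded 0. The last number therefore bears only on the differences by spacing and by word. The class rests on counting error or replicate spread, except for the number of regions, which has no interval. There, 356 to 478 regions were classed as the same as 426. With summits within 100 bp, 57.8% of tRNA genes had a region, 46.3% of regions were optimal and 72.8% were matched in both replicates, and with 500 bp 72.7% of genes had a region. With the summit inside the gene there were 191 regions, at 31.2% of genes, of which 51.3% were optimal and 78.5% matched in both, and clustered minus single was -27.5 points. With 1 region per gene 45.6% were optimal and 72% matched in both. The matched share was 51.9% with summits within 50 bp and 78.6% within 200 bp. Counting any overlap of 1 bp, 49.8% were optimal. The summit lay before the 5′ end of the gene at 30.8% of regions, and on the upstream side at 66.1% of optimal peaks. Leaving out a replicate gave a median signal of 40.6 to 56.2, since a single library has lower values than the pool, and 59.5 to 64.4% of genes with a region. In a single list its 1112 strongest regions stood in for optimal peaks. The matched share and the log2 ratio need both replicates and have no value for a single list. The difference by GAGAG or CTCTC, and its alternatives, were chosen after seeing the data. It was 22.8 points with 50 bp before the gene, 7.73 with 100 bp after it, 45.3 on X and 24.1 on the autosomes. Intronic minus intergenic kept its sign in 10 of 10 alternatives (-7.17 to -1.83 points). No paired analysis was possible because there is only 1 group. The depth is unknown, and the count of genes per class limits most shares. The causes of these shifts were not tested.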

Other observations

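Some strong tRNA gene regions were narrow. Of the 426 regions 378 had a width of 436 bp, the most frequent width in the list, and 48 were narrower (109 to 368 bp). Of the narrower ones 47 were optimal and 41 had the summit on the upstream side of the gene (85.4%), and all 20 of the strongest were among them. The other 121 optimal tRNA gene regions had the fixed width. Over all nuclear regions 158 were narrower and 152 of these were optimal, so narrow width went with strength in the whole list. Of the optimal peaks, 47 of 168 at tRNA genes and 152 of 1091 in all were narrower. At 29 tRNA genes that contain an intron themselves, such as C04A11.t1, 21 had a region (72.4%, exact 95% interval 52.8 to 87.3%) and 9 an optimal peak, against 369 (63.3%) and 172 of 583 genes without one.

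Of the 61 tRNA genes whose midpoint lies in the promoter of a protein-coding gene, from 500 bp before to 100 bp after its 5′ end, 45 had a region (73.8%, 60.9 to 84.2%) and 23 an optimal peak (37.7%, 25.6 to 51%). Of the 551 others 345 had a region (62.6%, 58.4 to 66.7%) and 158 an optimal peak (28.7%), with overlapping intervals. CTCTC, read on the strand of the tRNA gene, stood 51 to 75 bases before 32 of the 181 genes with an optimal peak (17.7%) and before 6 of the 222 with no region (2.70%). At 1 to 25 bases it stood before 18 of 181 (9.94%) and 7 of 222 (3.15%).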
